A study of Neurospora crassa with 12 samples.

Results

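Libraries of Neurospora crassa, a filamentous ascomycete, hold 23 genes that were counted at no more than 0.5 CPM (the count of a gene scaled to the total of its library, per 1000000 counts) in each of the 6 libraries labelled Δmus-52 and at 1 CPM or more in each of the 6 libraries labelled Δpac-3. They were selected on these measured CPM values alone among the 9730 genes counted, with the locus tags NCU09771 to NCU09777 left out, of which 1 gene met the limits. The strain difference therefore chose the genes, and it is given here as a description without a test. The limits mark low counts rather than no counts. None of the 23 genes lacked counts in a whole Δmus-52 group, 12 had counts in each Δmus-52 library, and 11 had at least 1 Δmus-52 library at 0.

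Each strain was grown with 10 µM phosphate (low-Pi) or 10 mM phosphate (high-Pi), which gave 4 groups of 3 biological replicates, libraries I, II and III. RNA was taken from mycelium 5 h after conidia had been placed at 30 °C in medium of pH 5.4 that held 44 mM sucrose and 50 mM citrate. In the Δpac-3 strain the bar gene, a resistance marker, replaces the coding region of pac-3 in a background that already lacks mus-52, so by their description both strains carry the mus-52 deletion and the mutant alone lacks pac-3. The conidia came from cultures of 5 days for Δmus-52 (3 in the dark and 2 in light) and of 10 days for Δpac-3 (3 in the dark and 7 in light), and the age of the culture and the deletion cannot be told apart.

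PAC-3 is the N. crassa member of the PacC/Rim101 family of zinc finger transcription factors. In filamentous fungi these factors are processed in response to ambient pH and both activate and repress genes. The gene mus-52 encodes a subunit of the Ku complex of non-homologous end joining, and strains that lack it are used to direct gene replacement. Of the 23 genes, 3 have a known name. NCU04197 encodes a CipC protein, a small protein first described in Aspergillus nidulans as induced by the antibiotic concanamycin. It lies on chromosome V from 5171516 to 5172309 in assembly NC12. NCU10895 is msh4, a MutS homologue that acts in meiotic crossing over in yeast, and it lies on chromosome I from 7164391 to 7168899. NCU03242 is stk-21, a serine/threonine protein kinase, on chromosome I from 5033679 to 5036626. The other 20 genes carry a locus tag and no name in the annotation used, and no role is given to them.

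The library totals ranged from 20240314 to 82211503 counts. Each total exceeded the mapped reads that the paper lists for the library, so counts here are not numbers of separate fragments. At these totals the limit of 0.5 CPM stood for 10.4 to 33.5 counts in the Δmus-52 libraries and the limit of 1 CPM for 20.2 to 82.2 counts in the Δpac-3 libraries. The targeted genes were examined first. The level of pac-3 (NCU00090) was 322 to 490 CPM in the Δmus-52 libraries and 139 to 208 CPM in the Δpac-3 libraries. It was thus lower in each Δpac-3 library but still counted there, although its coding region is described as replaced. Which part of the gene these reads cover was not examined, so the counts do not show whether the coding region is absent. The level of mus-52 (NCU00077) was 18.0 to 23.4 CPM in the libraries labelled Δmus-52 and 0 to 1.09 CPM in those labelled Δpac-3, which goes against the label of the control. Strain names here follow the library labels for both reasons, and the difference in mus-52 and that in pac-3 cannot be told apart in any strain comparison below. Replicates correlated across genes at 0.968 to 0.981 (log2 CPM) in Δpac-3 high-Pi and at 0.989 to 0.994 in the other groups.

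The 23 genes were mostly of low level even where they were counted. Their mean over the 6 Δpac-3 libraries had a median of 2.33 CPM and ran from 1.23 to 40.3, whereas the 7504 genes at 1 CPM or more in each Δpac-3 library had a median of 40.5. A mean below 2 CPM was found for 8 genes, from 2 to below 4 for 8, from 4 to below 8 for 5 and of 8 or more for 2. Their mean over the 6 Δmus-52 libraries lay between 0.033 and 0.40 CPM. The ratio of these means had a median of 19.6 and ran from 4.02 to 185, and the ratio of the lowest Δpac-3 library to the highest Δmus-52 library ran from 2.10 to 53.1. For 2059 of the 9730 genes (21.2%) all 6 Δpac-3 libraries lay above all 6 Δmus-52 libraries, as the limits fix for these 23.

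**Figure D1:**
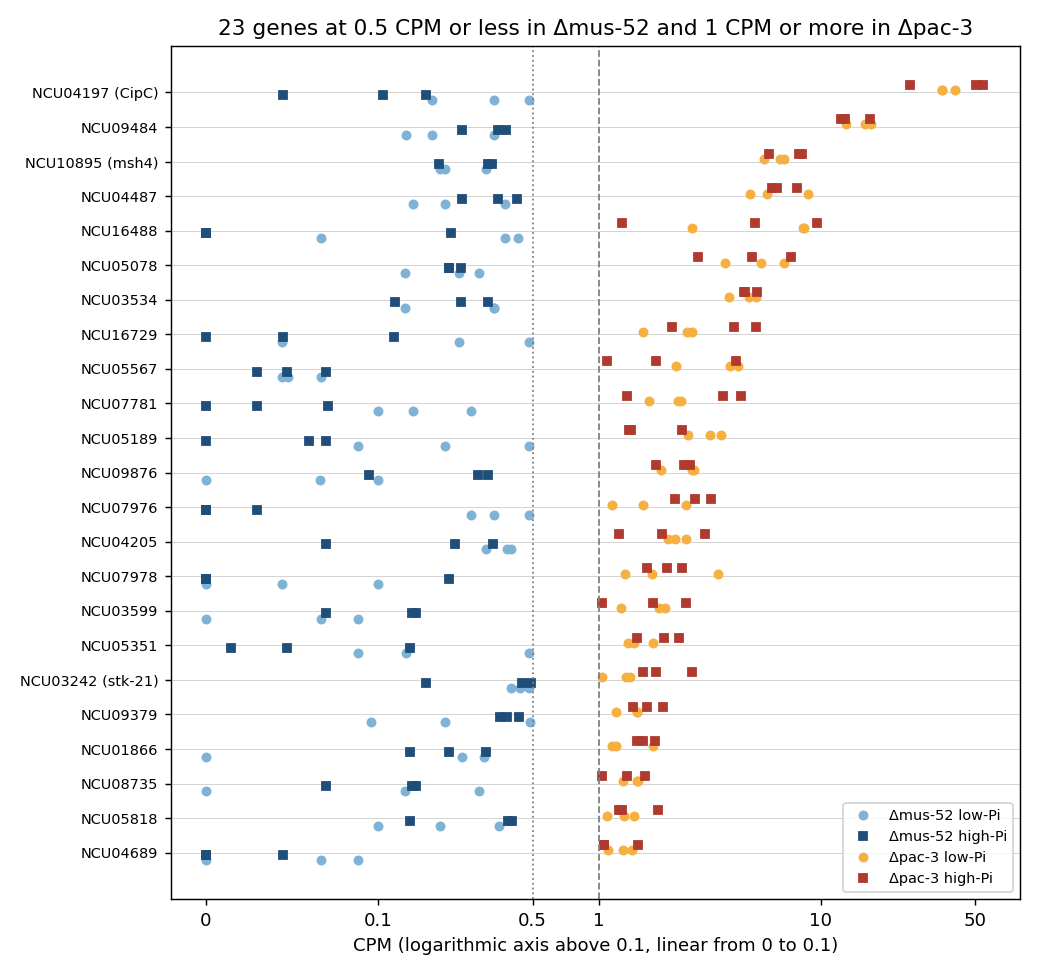
CPM of each of the 23 genes (rows, ordered by mean level in Δpac-3) in each of the 12 libraries, on an axis that is logarithmic above 0.1 and linear below. Circles stand for low-Pi and squares for high-Pi, blue for Δmus-52 and orange or red for Δpac-3, and the lines at 0.5 and 1 CPM are the limits that chose the genes. CipC lies farthest to the right (25.5 to 54.4 CPM in Δpac-3) and most other genes lie between 1 and 10 CPM.

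CipC stood apart from the others in level. It was counted at 35.3, 35.5 and 40.4 CPM in libraries I, II and III of Δpac-3 low-Pi and at 54.4, 50.5 and 25.5 CPM in Δpac-3 high-Pi. In Δmus-52 it was counted at 0.18, 0.33 and 0.48 CPM in low-Pi and at 0.045, 0.11 and 0.17 CPM in high-Pi. These are 3 to 10 counts per Δmus-52 library against 719 to 2902 per Δpac-3 library. Its mean of 40.3 ± 10.7 CPM (SD, n = 6 libraries of 2 Pi conditions) was 185 times that in Δmus-52, and per kilobase of gene span it was also the highest of the 23 (50.7 CPM per kb against a median of 1.58). CipC alone made up much of what the genes yielded together. The 23 genes summed to 98.3 to 137 CPM in the Δpac-3 libraries and to 3.72 to 5.99 CPM in the Δmus-52 libraries, and without CipC to 68.2 to 87.0 and 3.68 to 5.52 CPM.

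NCU09484, on chromosome II from 4426885 to 4428862, was the next in level and one of the steadiest. It had 13.1, 16.9 and 15.9 CPM in Δpac-3 low-Pi and 12.4, 12.9 and 16.7 CPM in Δpac-3 high-Pi, against 0.13 to 0.38 CPM in the Δmus-52 libraries. In the annotation it overlaps NCU09483, which was counted in both strains, at 91.7 to 113 CPM in Δmus-52 and 125 to 143 CPM in Δpac-3. The use of strand in counting is not given in the sources used here, and reads of such overlapping genes cannot be told apart without it.

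The meiotic gene msh4 was counted at 5.57, 6.82 and 6.59 CPM in Δpac-3 low-Pi and at 7.98, 5.85 and 8.21 CPM in Δpac-3 high-Pi. In Δmus-52 it had 0.31, 0.20 and 0.19 CPM in low-Pi and 0.33, 0.32 and 0.19 CPM in high-Pi. Its mean was 6.83 ± 1.08 CPM (SD, n = 6) in Δpac-3 and 26.7 times that in Δmus-52. The kinase gene stk-21 showed the smallest ratio of the 23, at 4.02, and the lowest level per kilobase, 0.55. It was counted at 1.33, 1.38 and 1.03 CPM in Δpac-3 low-Pi and at 1.58, 1.81 and 2.63 CPM in Δpac-3 high-Pi. Its Δmus-52 libraries ran from 0.17 to 0.49 CPM, so it stood close to both limits.

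Among the unnamed genes, NCU03534 varied least between Δpac-3 libraries. It had 5.13, 4.74 and 3.84 CPM in low-Pi and 4.53, 5.16 and 4.53 CPM in high-Pi, against 0.12 to 0.34 CPM in Δmus-52. NCU04487 ran from 4.79 to 8.75 CPM in Δpac-3 and from 0.14 to 0.43 in Δmus-52. Both genes thus kept a wide gap between the strains. NCU05078 ran from 2.81 to 7.34 CPM in Δpac-3 and from 0.13 to 0.29 in Δmus-52. NCU16729 ran from 1.58 to 5.09 CPM in Δpac-3 and from 0 to 0.48 in Δmus-52, and NCU07781 from 1.34 to 4.38 CPM and from 0 to 0.26. These last genes had their highest Δpac-3 value in a high-Pi library, which was I for NCU05078 and II for NCU16729 and NCU07781.

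NCU05567 and NCU16488 varied most over the Δpac-3 libraries. NCU05567 had 4.22, 2.22 and 3.88 CPM in Δpac-3 low-Pi and 1.09, 4.14 and 1.81 CPM in high-Pi, with 1 or 2 counts in each Δmus-52 library. NCU16488 had 2.63, 8.35 and 8.37 CPM in Δpac-3 low-Pi and 1.26, 9.61 and 5.04 CPM in high-Pi, so library I was the lowest of both groups. The coefficient of variation over the 6 Δpac-3 libraries, at most 58.3%, had a median of 26.5% for the 23 genes. It was 14.5% for the 7504 genes at 1 CPM or more in each Δpac-3 library and 23.4% for the 772 of those with a mean of 1 to 5 CPM, where counts are similarly few. Library II of Δpac-3 high-Pi was the highest of the 6 for 11 of the 23 genes and for 26.3% of the 7504, and library I of that group the lowest for 7 of the 23 and for 22.6% of the 7504.

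The remaining 12 genes had means of 1.23 to 2.39 CPM in Δpac-3. The lowest was NCU04689, with 1.09, 1.28 and 1.41 CPM in Δpac-3 low-Pi and 1.05, 1.504 and 1.06 CPM in high-Pi. Its counts in the Δmus-52 libraries were 4, 2 and 0 with low-Pi and 3, 0 and 0 with high-Pi, and its ratio of means was 37.1. NCU09379 lay at the other end of that ratio, 4.69, with 0.096 to 0.49 CPM in Δmus-52 and 1.19 to 1.95 CPM in Δpac-3. A low level in Δpac-3 thus came with a wide as well as with a narrow gap to Δmus-52. Inside the upper limit the nearest genes were stk-21, NCU09379 and CipC, whose highest Δmus-52 libraries had 0.490, 0.485 and 0.480 CPM. NCU05189, NCU05351, NCU07976 and NCU16729 tied with CipC, each with 10 counts in library III of Δmus-52 low-Pi. Just outside it were NCU02593, NCU05201 and NCU02163, at 0.523, 0.528 and 0.551 CPM. Inside the lower limit NCU03599, NCU08735 and stk-21 had a lowest Δpac-3 library of 1.03 CPM each. Just outside were NCU05887, NCU05568 and NCU16474, at 0.990, 0.988 and 0.984 CPM.

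The choice of scaling decided a large part of the list. With TMM factors, which were 0.871 to 0.955 in the Δmus-52 libraries and 1.00 to 1.14 in the Δpac-3 libraries, 12 of the 23 genes met the same limits. These were NCU01866, NCU03534, NCU04205, NCU04487, NCU05078, NCU05567, NCU07781, NCU07978, NCU09484, NCU09876, msh4 and NCU16488. Of the 11 that did not, 6 exceeded the upper limit, 4 fell under the lower limit, and stk-21 did both. CipC, NCU05189, NCU05351, NCU07976 and NCU16729 exceeded the upper limit in 1 library alone. This was library III of Δmus-52 low-Pi, where each had 10 counts, or 0.507 CPM with TMM factors. On the log2 scale the strain difference of all genes had a median of 0.02 (low-Pi) and −0.01 (high-Pi) with TMM factors, and of 0.19 and 0.25 with library totals alone. With the strains exchanged, the same limits held for 6 genes, and for 7 with TMM factors.

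Fitted strain differences are given as a description, since this contrast chose the genes. In edgeR's quasi-likelihood fit, with a Benjamini-Hochberg adjusted p below 0.05 and a log2 fold change of at least 1.5 as thresholds, 437 of 8269 genes (5.28%) were higher in Δpac-3 in low-Pi and 600 of 8284 (7.24%) in high-Pi. The share of the 23 genes past these thresholds was set by the limits and is not given. The 23 genes had a median log2 fold change of 4.05 with low-Pi and of 4.44 with high-Pi, and CipC one of 6.78 and 8.50. The smallest were those of stk-21 with low-Pi (1.35) and of NCU09379 with high-Pi (1.81).

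The response to Pi within the Δpac-3 strain does not use the strain contrast that chose the genes, and it was tested over the 6 Δpac-3 libraries. The lower limit did apply to these libraries. A gene that fell below 1 CPM in either Pi condition could not be among the 23, which limits the responses that could be seen. None of the 23 genes passed the thresholds in either direction, and neither did any of the 8348 genes tested (0.0% higher and 0.0% lower in high-Pi). At an unadjusted p below 0.05 there was 1 of the 23 genes, beside 413 of all genes (4.95%), and with DESeq2 0 of the 23 and 6 of all genes passed the thresholds. The 23 log2 fold changes of high-Pi over low-Pi ran from −0.86 to 0.70 with a median of 0.01, and that of all genes was 0.00. They were positive for 12 genes and negative for 11. Their standard errors, derived from each fold change and its F statistic, were 0.18 to 0.66, with a median of 0.28 against 0.18 for all genes. The largest was that of NCU16488.

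The gene at the unadjusted threshold was NCU05189. It had 2.52, 3.16 and 3.54 CPM in Δpac-3 low-Pi and 1.37, 2.36 and 1.39 CPM in high-Pi, without overlap between the groups. Its log2 fold change was −0.86 (SE 0.27, adjusted p = 0.928 by edgeR), and its adjusted p ran from 0.371 to 1.00 over the alternatives. In the opposite direction stk-21 was the one gene whose 3 high-Pi libraries all lay above the 3 low-Pi libraries, with a log2 fold change of 0.67 (SE 0.31, adjusted p = 0.928). Of all genes, 5.19% showed that arrangement and 4.16% the reverse one. CipC had a log2 fold change of 0.20 (SE 0.25) and msh4 of 0.21 (SE 0.21), with overlapping libraries. For 11 of the 23 genes the sign of this fold change turned when at least 1 of the 6 libraries was left out, CipC among them (−0.0042 without library I of Δpac-3 high-Pi), and for 12 it did not.

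**Figure D2:**
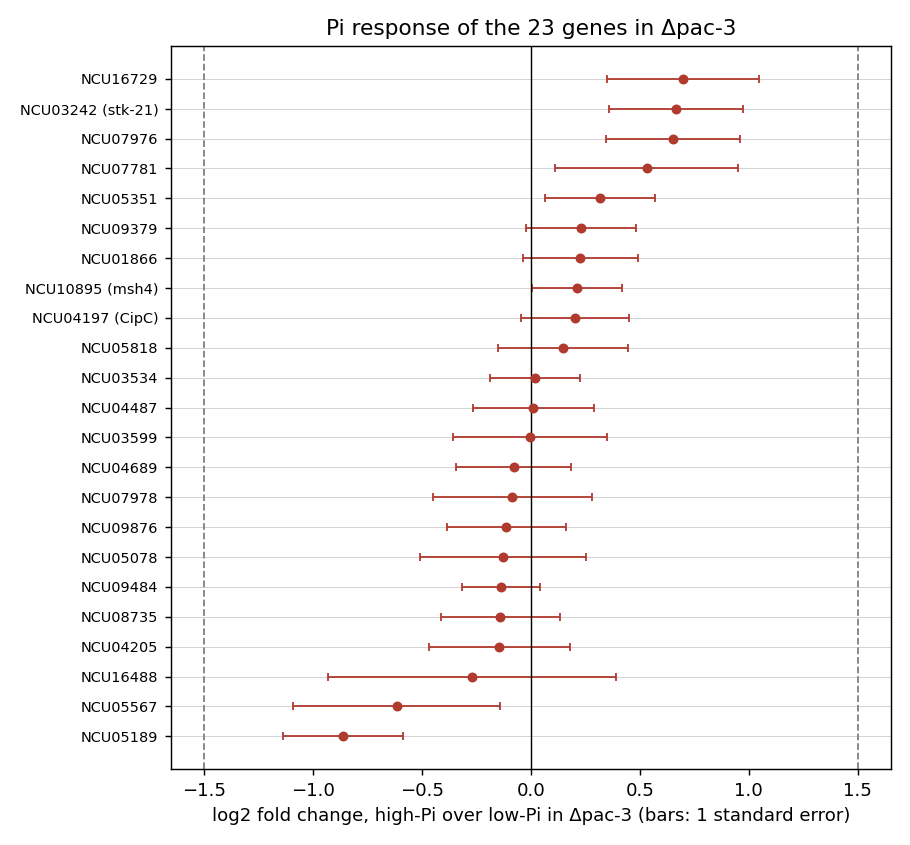
Log2 fold change of high-Pi over low-Pi within Δpac-3 for the 23 genes, from edgeR's fit of the 6 Δpac-3 libraries. Points are estimates, bars are 1 approximate standard error derived from the F statistic, and dashed lines mark the threshold of 1.5 in each direction. All points lie between −0.86 (NCU05189) and 0.70 (NCU16729), inside the thresholds.

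Within Δmus-52 the genes were near the floor of counting, and their response to Pi there was tested after the data had been seen, without a filter on low counts. The upper limit applied to these libraries, so a gene that exceeded it in either Pi condition could not be among the 23. With that limit and so few counts, the shares below cannot show whether the 23 genes respond to Pi less often than other genes. Of the 9255 genes with any count, 2661 (28.8%) passed an adjusted p below 0.05, 1479 of them (16.0%) lower in high-Pi. Of the 23 genes, NCU07976 alone passed. At an unadjusted p below 0.05 there were 5 of the 23, beside 39.4% of all genes, and 4 of them (CipC, NCU05189, NCU07781 and NCU07976) were lower in high-Pi, beside 20.9%. The same 4 genes had their 3 low-Pi libraries above the 3 high-Pi libraries, an arrangement shown by 23.9% of all genes. The fifth, NCU09876, had a log2 fold change of 1.88 (SE 0.79, adjusted p = 0.0986, edgeR).

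NCU07976 was the one gene of the 23 whose response to Pi differed between the strains in edgeR's test at an adjusted p below 0.05. With DESeq2 CipC, NCU07781 and NCU16729 passed as well, but the share of all genes that passed with DESeq2 is not given here. Its Δmus-52 counts were 12, 10 and 10 with low-Pi, or 0.26, 0.33 and 0.48 CPM, and 2, 0 and 0 with high-Pi. In Δpac-3 it had 1.14, 1.58 and 2.47 CPM in low-Pi and 2.71, 3.21 and 2.20 CPM in high-Pi. The groups did not overlap in Δmus-52 and overlapped in Δpac-3, where the log2 fold change was 0.65 (SE 0.31, adjusted p = 0.928, edgeR). In Δmus-52 the pooled level was 22.9 times higher in low-Pi (95% exact interval 5.85 to 197 from 32 and 2 counts), and the fitted log2 fold change of high-Pi over low-Pi was −4.27 (SE 0.85, adjusted p = 0.00329, edgeR). The interaction of strain and Pi over the 12 libraries was 4.90 on the log2 scale (SE 0.78, adjusted p = 0.00333, edgeR), where 851 of 9439 genes (9.02%) passed. Each SE here was derived from the F statistic and is approximate at so few counts. The limits that chose the genes bounded the values used in this test. With TMM factors, which the test used, NCU07976 exceeded the upper limit, at 0.507 CPM. Even numbers made up 60.1% of the 12324 counts from 1 to 20 in all genes and libraries, so both mates of some read pairs may have been counted. In each library the total of counts exceeded the mapped reads that the paper lists. The counts are therefore not numbers of separate fragments. The interval covers counting error only and is too narrow for that reason.

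NCU07976 also belongs to the closest pair among the 23. No 2 of the genes are neighbours in the gene order of the annotation, and the nearest pair is NCU07976 (chromosome IV, 3780131 to 3780975) and NCU07978 (3783627 to 3785006), with NCU07977 between them. NCU07978 had 1.31, 1.73 and 3.43 CPM in Δpac-3 low-Pi and 1.65, 2.36 and 2.02 CPM in high-Pi, and 6 counts or fewer in each Δmus-52 library. The gene between them, NCU07977, was also low in Δmus-52 (0.044 to 0.20 CPM), and at 0.28 to 1.23 CPM in Δpac-3 it missed the lower limit. In each group of Δpac-3 the 3 libraries of NCU07977 ran below those of NCU07976. The next genes outward, NCU07975 and NCU07979, were counted in both strains, at 19.1 to 22.4 and 1.82 to 3.79 CPM in Δmus-52 and at 25.4 to 36.1 and 3.71 to 9.54 CPM in Δpac-3.

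**Figure D3:**
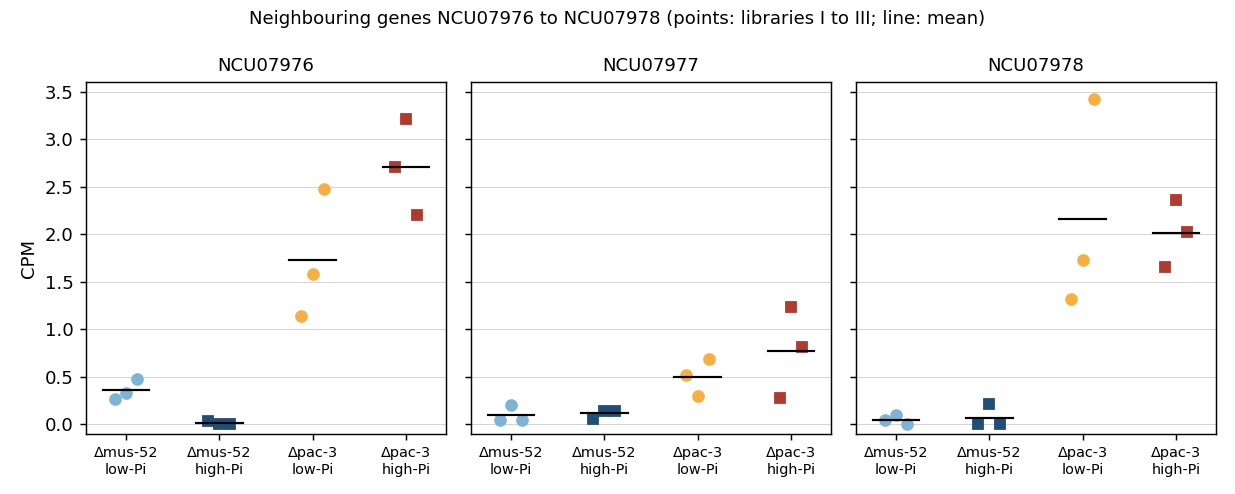
CPM of the neighbouring genes NCU07976, NCU07977 and NCU07978 in the 4 groups. Points are libraries I to III from left to right and lines are group means. NCU07976 lies at 0.26 to 0.48 CPM in Δmus-52 low-Pi and at 0 to 0.030 in Δmus-52 high-Pi, while all 3 genes lie higher in Δpac-3 in both Pi conditions.

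The genes directly beside the 23 were examined next, a comparison added after the data had been seen. The limits were not applied to them, but some overlap one of the 23 and may share its reads. Some could pass the filter on low counts through Δpac-3 alone. Among these was NCU07049, with at most 0.13 CPM in Δmus-52 low-Pi and at least 0.44 in Δpac-3 low-Pi. NCU05568 in low-Pi had at most 0.20 CPM in Δmus-52 and at least 0.988 in Δpac-3. NCU05566 in high-Pi had at most 0.12 and at least 0.35 CPM. A gene that enters in this way is high in Δpac-3 by the filter itself, so the shares called higher are partly set in advance. There were 45 flanking genes. In low-Pi 34 of them passed the filter and could be tested, and 7 of these (20.6%) were higher in Δpac-3 by both thresholds, beside 5.28% of all genes tested. In high-Pi 8 of 35 (22.9%) were, beside 7.24%, and the number was 5 without library II of Δmus-52 high-Pi and 5 without library II of Δpac-3 high-Pi. None was lower by the thresholds in either condition, and 5 passed in both. The flanking genes tested had a median log2 fold change of 0.34 (low-Pi) and 0.31 (high-Pi), where all genes had 0.02 and −0.01. A log2 fold change below 0 was found for 10 of the 34 and 12 of the 35 flanking genes tested. Of the 23 genes, 8 lie beside a gene that passed in at least 1 condition, and so do 1329 of all 9729 genes in the annotation (13.7%).

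The largest of these differences was that of hak-1 (NCU00790), a potassium transporter gene beside msh4. It had 4.66 to 6.14 CPM in Δmus-52 and 152 to 238 CPM in Δpac-3, a log2 fold change of 5.21 (SE 0.11) with low-Pi and 4.98 (SE 0.19) with high-Pi. The CPM of msh4 was 3.26% to 6.77% of that of hak-1 in the Δmus-52 libraries and 2.34% to 5.24% in the Δpac-3 libraries. In low-Pi the share was 3.26% to 5.62% in Δmus-52 and 2.34% to 2.97% in Δpac-3, without overlap, and in high-Pi it was 3.54% to 6.77% and 2.98% to 5.24%, with overlap. The part of reads from hak-1 in the counts of msh4 was not tested.

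The other flanking genes that passed were at lower levels. The gene het-6 (NCU03533), which carries the name of a heterokaryon incompatibility gene, lies beside NCU03534 and rose from a mean of 0.38 ± 0.097 CPM in Δmus-52 to 2.18 ± 0.66 in Δpac-3 (SD, n = 6), a log2 fold change of 2.45 (low-Pi) and 2.13 (high-Pi). NCU05567 lies between NCU05566 and NCU05568, and both were low in Δmus-52. NCU05568 had 0.048 to 0.43 CPM in Δmus-52 and 0.988 to 2.15 CPM in Δpac-3, with log2 fold changes of 3.07 and 1.72, and it missed the lower limit only in libraries II and III of low-Pi. NCU05566 had 0.047 to 0.13 and 0.30 to 0.79 CPM, where the log2 fold change was 2.36 with high-Pi. Beside NCU04689, NCU07049 showed 3.02 and 1.78, and NCU04690 showed 1.66 in low-Pi and 1.36, below the threshold, in high-Pi. NCU04488, beside NCU04487, passed in both conditions (1.77 and 1.54). NCU05819, beside NCU05818, passed in low-Pi (1.78), and NCU05079 and NCU05188, beside NCU05078 and NCU05189, in high-Pi (1.54 and 3.57). CipC differed from these, since neither NCU04196 nor cac-1 (NCU04198), its neighbours, passed.

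**Figure D4:**
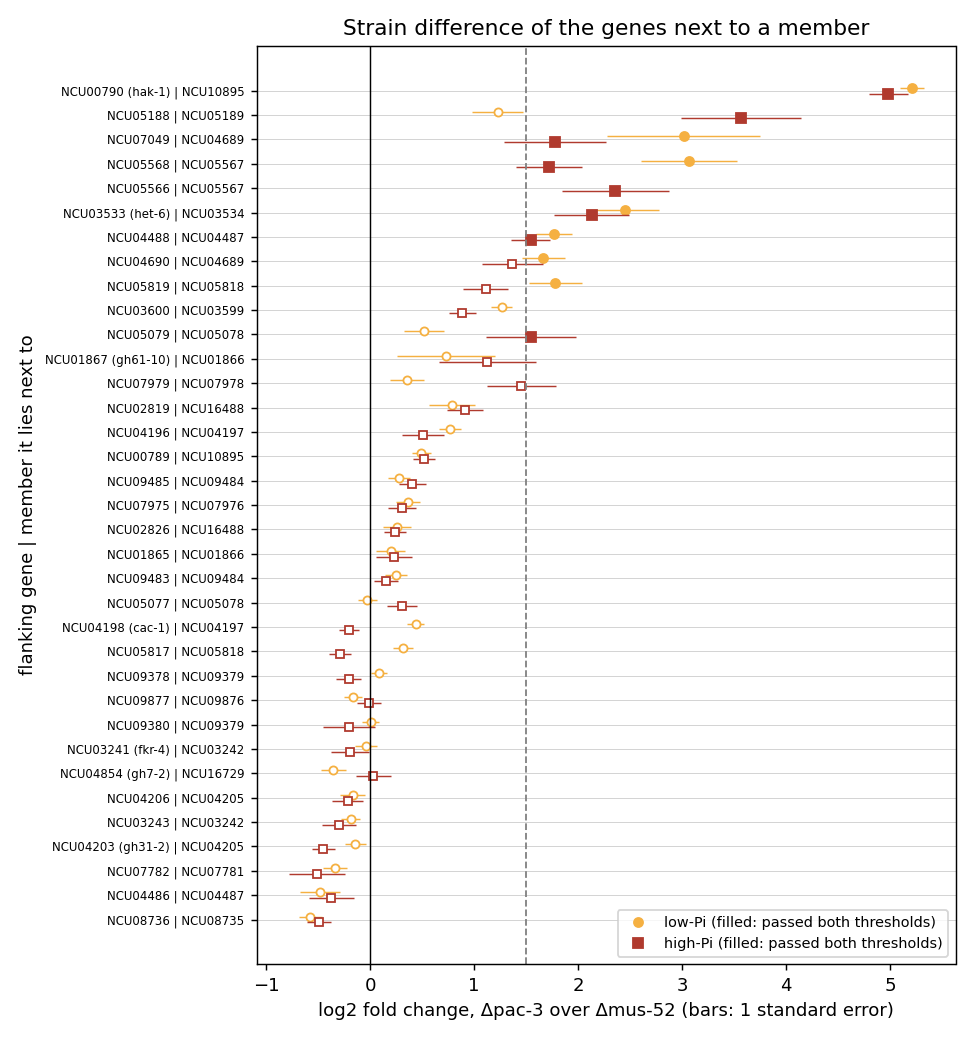
Log2 fold change of Δpac-3 over Δmus-52 for the genes next to one of the 23, from edgeR, in low-Pi (circles) and high-Pi (squares). Bars are 1 approximate standard error derived from the F statistic, filled symbols passed both thresholds, and the dashed line marks 1.5. The hak-1 gene lies highest (5.21 and 4.98), and no gene passed on the negative side.

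Along the chromosomes the genes were spread. Chromosome I held 6, II 4, IV 5, V 4, VI 3 and VII 1, and III held none. CipC and NCU04205 lie 5 genes apart. The span of the 23 genes had a median of 1380 bases (696 to 4509), against 2129 for all genes. By the annotation, 6 of the 23 overlap another gene. These partners were counted at like levels in both strains for stk-21 (NCU03243, 27.9 to 33.3 CPM in Δmus-52 and 27.4 to 38.5 in Δpac-3), for NCU04205 (NCU04206, 16.3 to 18.1 and 15.1 to 21.3) and for NCU09379 (NCU09378, 62.3 to 76.7 and 63.7 to 81.2). The partner of NCU05189 was at 0 in every library, and that of NCU05351 at no more than 0.070 CPM.

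Markers of other developmental states were measured beside these genes. The 6 conidiation genes con-6, con-8, con-10, eas, fl and acon-3 summed to 27.2 to 53.2 CPM in the Δmus-52 libraries, to 154 to 548 CPM in Δpac-3 low-Pi and to 65.8 to 275 CPM in Δpac-3 high-Pi. In each Δpac-3 low-Pi library eas alone made up most of the sum. For 3 of the 6 (con-8, eas and fl) all Δpac-3 libraries lay above all Δmus-52 libraries, beside 21.2% of all genes, and none of the 6 was at 0. For con-6, con-10 and acon-3 the strains overlapped. In high-Pi con-6 had 5.87, 4.27 and 20.6 CPM in Δpac-3 and 16.8, 13.7 and 13.7 CPM in Δmus-52. Within Δpac-3, eas, which encodes the hydrophobin coat of the conidium, had 81.8, 428 and 446 CPM in low-Pi and 27.9, 102 and 141 CPM in high-Pi. Library I was the lowest of both groups for eas, as for NCU16488, while fl was highest in library I of low-Pi (50.5 CPM). In Δpac-3 low-Pi library I was also the lowest of its group for 60.4% of the 7504 genes. In Δpac-3 high-Pi it was the lowest for 33.0%, and library III for more, 45.3%. The 7 genes of sexual development and mating summed to 554 to 2640 CPM in Δmus-52 and to 599 to 8525 CPM in Δpac-3. For none of the 7 did all Δpac-3 libraries lie above all Δmus-52 libraries. A further listed gene, sub-1, was left out because the annotation gives it no symbol. It did show this arrangement, with 22.6 to 27.1 CPM in Δmus-52 and 27.5 to 35.3 CPM in Δpac-3. The pheromone gene mfa-1 made up nearly all of these sums, with 515 to 2575 and 551 to 8446 CPM. The mating type genes mat A-1, mat A-2 and mat A-3 were listed at 0 in every library, so for them the comparison of strains could show no difference. The part of conidial or other cells in the levels of the 23 genes was not tested.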

How the data were processed

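The authors sequenced 100 bp paired-end reads, trimmed them at a Phred score of 20, checked them with FastQC 0.11.7, mapped them with Bowtie2 2.3.4 to the NC12 assembly and deposited raw counts per gene for each library, without normalization. Which tool counted the reads, whether it used strand, and with which annotation release, is not given in the sources used here. The deposited tables of the authors' own strain comparison, with fold changes and p-values, were not used.

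CPM were computed from library totals. Tests used edgeR 4.0.16 (limma 3.58.1, R 4.3.3) with TMM factors, filterByExpr (minimum count 10, minimum total 15), the quasi-likelihood F test, Benjamini-Hochberg adjustment over all genes tested, a prior count of 0.125 and the study's thresholds, an adjusted p below 0.05 together with a log2 fold change of 1.5 or more in either direction. The Pi response in Δmus-52 and the interaction were tested at the adjusted p alone, without the filter. Each SE given with edgeR was computed as the absolute log2 fold change divided by the square root of F. It is approximate and unreliable at very low counts or very small fold changes. DESeq2 1.42.0, other scalings, limits, a replicate block and the omission of each library were alternatives. Flanking genes were those on each side of a gene in the order of the annotation. Python 3.11.15, numpy 2.4.6, scipy 1.17.1, pandas 2.3.3 and matplotlib 3.10.9 were used, and the fits were tested on simulated data.

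The genes, marker lists and tests were chosen with earlier results of these data known. The rule for named genes took the 10 highest in Δpac-3, any called for Pi in Δpac-3, neighbours, those with a symbol, the 3 nearest to each limit on each side, pac-3 and mus-52. Other genes named, including NCU05189, NCU07976, NCU07978, NCU09876 and the flanking genes, were chosen after their values were seen. Names, positions and gene order came from the RefSeq gene table of assembly NC12, where all 23 genes and 9729 of the 9730 IDs were found. It gives a symbol to 1118 of them, 2 among the 23, and the name CipC came from the paper. No sequences are given. Product classes and promoter motifs were not analysed here, and read sharing among paralogs was not examined. The marker sub-1 was left out of the sums and counts because its symbol was not in the table, and its levels are given apart. Libraries held 20240314 to 82211503 counts, and 3 counts correspond to 0.036 to 0.15 CPM.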

Additional observations from a re-analysis of the deposited data

Results flagged for a closer look

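NCU07976 was singled out because its response to Pi differed between the strains by a test of the difference itself, the interaction of strain and Pi. The interaction was 4.90 on the log2 scale (SE 0.78, adjusted p = 0.00333, edgeR over 12 libraries). It rests on 32 counts in Δmus-52 low-Pi and 2 in Δmus-52 high-Pi, where the SE is approximate. The limits that chose the genes bounded the values of both strains, so the test is not independent of the choice. The highest Δmus-52 library of NCU07976, low-Pi III, had 0.480 CPM, close to the upper limit. With TMM factors the gene had 0.507 CPM and left the list. Over 15 alternatives the interaction ranged from 4.43 to 7.35 with adjusted p of 0.000168 to 0.0117, and the response within Δmus-52 over 9 alternatives from −6.52 to −3.77 with adjusted p of 0.00209 to 0.0166.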

How the results depend on the processing

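The number of genes that met the limits was 23 with library totals. It was 12 with TMM factors, 4 with an upper limit of 0.25 CPM, 6 with a lower limit of 2 CPM, 24 with limits of 1 and 2 CPM (6 of them among the 23), and 6 with the strains exchanged (7 with TMM factors). It ranged from 23 to 31 when a library was left out, with 31 without Δpac-3 high-Pi I. Neighbouring pairs numbered 0, and 1 with up to 1 or up to 2 genes allowed between. In the Pi response within Δpac-3, none of the 23 genes passed under any alternative, and among all genes 0 passed, or 6 with DESeq2, 1 with the replicate block, and 0 to 17 with a library left out (17 without Δpac-3 high-Pi III). The replicate numbers were not taken as pairs. Deviations of same-numbered Δpac-3 libraries correlated at 0.354, 0.056 and 0.121, and II and III each correlated better with the other's number (0.156 and 0.211). In the Pi response within Δmus-52, 1 of the 23 genes passed, or 1 to 3 with a library left out (3 without high-Pi III, 2 without low-Pi I). In the interaction 1 passed, beside 9.02% of all genes in edgeR, and 1 to 2 with a library left out (2 without Δmus-52 high-Pi III, Δpac-3 high-Pi I or Δpac-3 high-Pi III). With DESeq2 4 passed (CipC, NCU07781, NCU07976 and NCU16729), for which no share of all genes is given. Flanking genes higher in Δpac-3 numbered 6 to 10 in low-Pi and 5 to 9 in high-Pi with a library left out. The block changed no call among the 23 genes in the Pi responses and the interaction, and was not run for the strain comparisons. Without Δpac-3 high-Pi I, the Pi response of CipC in Δpac-3 turned from 0.20 to −0.0042, neither called (range −0.0042 to 0.46 with a library left out), and the cause of these shifts was not tested. Depth limits the genes in Δmus-52, where their levels rest on 0 to 30 counts per library.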

Other observations

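The 6 genes that met the limits with the strains exchanged were NCU02383, NCU03180, NCU03378, NCU06475, NCU07900 and NCU09990. The highest was NCU03378, with 7.85, 7.30 and 9.30 CPM in Δmus-52 low-Pi, 6.499, 6.83 and 8.57 CPM in Δmus-52 high-Pi, and 0.038 to 0.27 CPM in the Δpac-3 libraries. NCU06475 had 6.83, 6.24 and 5.76 CPM in Δmus-52 low-Pi and 5.32, 2.35 and 3.08 CPM in Δmus-52 high-Pi, and NCU09990 had 7.69, 5.47 and 4.99 CPM and 4.42, 2.73 and 2.08 CPM. In both of these the 3 low-Pi libraries lay above the 3 high-Pi libraries, which was not tested for these genes.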
